A study of Rattus norvegicus with 4 samples.

Results

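Regulators of the actin thin filament of smooth muscle, *Tpm1*, *Cald1* and *Cnn1*, were followed in Iso-Seq data from A7R5 cells. They were taken by their Ensembl identifiers (ENSRNOG00000018184, ENSRNOG00000010233 and ENSRNOG00000027736), 3 of the 30454 genes in the count tables. Any transcript that could be paired with one of these names was also followed. Names could be read for 1111 of the 54852 transcripts listed. They gave 1 transcript of *Tpm1*, Tpm1-203 (ENSRNOT00000024617), and 0 transcripts of *Cald1* or *Cnn1*, whose transcripts may be among those without a name. A7R5 is a smooth muscle line derived from embryonic rat aorta. For 72 hours its cells carried either control siRNA, a negative control pool, or siRNA against *RbFox2*, an RNA-binding regulator of splicing. Each condition had 2 libraries, and a single cell line is behind all of them. Iso-Seq reads whole cDNA molecules on a long-read sequencer, so that 1 read can cover a transcript from end to end. The comparison asks what happened to these genes when RbFox2 was depleted.

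Tropomyosin, encoded by *Tpm1* and its paralogs, is a coiled coil that lies along the actin filament and governs which proteins reach it. *Tpm1* is known for making many proteins by alternative splicing, and smooth muscle and other cells use different forms. Caldesmon (*Cald1*) binds actin and tropomyosin and restrains the myosin ATPase, and it too has a long smooth muscle form and shorter forms in other cells. Calponin 1 (*Cnn1*) is an actin-binding protein of differentiated smooth muscle that also restrains myosin. The RefSeq gene table of GRCr8, a later assembly than the mRatBN7.2 of the counts, lists 28 transcripts for *Tpm1*, 20 for *Cald1* and 1 for *Cnn1*.

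Smooth muscle genes are widely known for CArG boxes, which serum response factor binds, and MCAT elements, which TEAD factors bind. The 250 bases before the RefSeq start of each gene are shown because the 3 genes moved in the same direction. They are from GRCr8 and run 5′ to 3′ on the strand of the gene. Capitals mark matches to the 10-base CArG box with up to 1 mismatch, or to MCAT (CATTCC, or GGAATG on the other strand).
*Tpm1*, chr8:76543416-76543665, minus strand: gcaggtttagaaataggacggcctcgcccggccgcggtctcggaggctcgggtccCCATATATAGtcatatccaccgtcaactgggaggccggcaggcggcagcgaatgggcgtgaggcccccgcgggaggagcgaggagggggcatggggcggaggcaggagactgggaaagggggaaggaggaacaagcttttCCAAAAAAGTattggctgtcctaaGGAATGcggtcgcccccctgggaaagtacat
*Cald1*, chr4:64233006-64233255, plus strand: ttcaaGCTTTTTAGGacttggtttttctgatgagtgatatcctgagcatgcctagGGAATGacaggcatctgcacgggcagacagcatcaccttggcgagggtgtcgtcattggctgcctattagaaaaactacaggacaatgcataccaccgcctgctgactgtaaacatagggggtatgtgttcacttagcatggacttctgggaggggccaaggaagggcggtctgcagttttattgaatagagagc
*Cnn1*, chr8:28908187-28908436, plus strand: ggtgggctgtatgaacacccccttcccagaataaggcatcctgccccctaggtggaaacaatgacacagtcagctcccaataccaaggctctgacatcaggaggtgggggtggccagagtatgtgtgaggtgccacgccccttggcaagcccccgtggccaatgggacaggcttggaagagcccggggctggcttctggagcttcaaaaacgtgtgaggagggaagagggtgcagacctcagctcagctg
The *Tpm1* window held 2 CArG matches, each with 1 mismatch, and 1 MCAT element. The *Cald1* window held 1 CArG match with 1 mismatch and 1 MCAT element. A second RefSeq start of *Cald1*, after chr4:64343465-64343714, and the *Cnn1* start had no match to either in the window. A perfect CArG box was in 1.5% of 33469 such windows, a match with up to 1 mismatch in 18.7% and an MCAT element in 12.1%. These matches are descriptions of letters, and both motifs matched before *Tpm1* and the first *Cald1* start but not in the *Cnn1* window.

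The knockdown was read first. *Rbfox2* had 243 and 250 counts in the control libraries and 70 and 78 after RbFox2 siRNA. As CPM, which sets the gene counts of every library to the same total, this was 58.6 ± 3.94 (SD, n = 2) against 16.4 ± 0.717. The conditions did not overlap, with a log2 fold change of -1.78 ± 0.185 (SE) and a Benjamini-Hochberg adjusted p of 5.16e-05 in edgeR's quasi-likelihood test. Libraries held 4072385 to 4617706 gene counts. Names could be read for 2337 genes, and they were not a random part. Of 1695 named genes that were tested and not called, 1684 had a log2 fold change above 0, and all 1111 named transcripts tested were above 0. A gene that fell could therefore be named here mainly where it was called, as 364 of the 375 named genes below 0 were. Counts, medians and ranges over lists below carry that bias.

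All 3 thin filament regulators fell after RbFox2 siRNA. *Tpm1* fell by 45.1%, *Cnn1* by 40.5% and *Cald1* by 38.5% in the fitted values. Each passed the test, and each had both RbFox2 siRNA libraries below both control libraries. The 3 genes were chosen with earlier results of these data known. Their calls and their ranks below are therefore descriptions of chosen genes. As background, 4.37% of the 9069 genes tested were called lower, that is with an adjusted p under 0.05 and a fold change over 1.5. Of the 4311 genes counted 100 times or more in each of the 4 libraries, 3.22% were called lower, and 27.6% had both RbFox2 siRNA levels below both control levels. Non-overlap on its own was thus common. The median log2 fold change was -0.01 over all tested genes and 0.04 over the 4311.

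*Tpm1* had 973 and 763 counts in the control libraries and 418 and 565 after RbFox2 siRNA. Its level was 205 ± 25.6 CPM (SD, n = 2) in control and 109 ± 19.5 CPM after RbFox2 siRNA. The lowest control library, at 187 CPM, lay above the highest RbFox2 siRNA library, at 122 CPM. The log2 fold change was -0.86 ± 0.154 (SE), with an adjusted p of 0.00367 in edgeR's quasi-likelihood test. Among the 4311 well-counted genes, 45 (1.04%) had a lower log2 fold change.

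*Cald1* had 6928 and 4736 counts in control and 3435 and 3918 after RbFox2 siRNA. These were 1377 ± 303 CPM (SD, n = 2) and 814 ± 49.1 CPM. The control libraries were far apart, with 1591 CPM in replicate 1 and 1163 CPM in replicate 2, but the lower of them was above both RbFox2 siRNA libraries. The log2 fold change was -0.70 ± 0.149 (SE), with an adjusted p of 0.0125 in edgeR's quasi-likelihood test. Without control replicate 1 it was -0.50 ± 0.206 and the call was lost (adjusted p = 0.189). RefSeq lists 1 gene that overlaps *Cald1*, LOC120102254, and whether the counting separated strands is not given in the sources used here, so reads of the pair may not be told apart.

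*Cnn1* had 1951 and 2106 counts in control and 1184 and 1322 after RbFox2 siRNA. Its level was 483 ± 48.8 CPM (SD, n = 2) in control and 277 ± 12.6 CPM after RbFox2 siRNA. The replicates lay close together and the conditions far apart. The log2 fold change was -0.75 ± 0.137 (SE), with an adjusted p of 0.00455 in edgeR's quasi-likelihood test. In rank, 74 (1.72%) of the well-counted genes had a lower log2 fold change, against 94 (2.18%) for *Cald1*. In such bulk samples fewer expressing cells and less RNA per cell cannot be told apart.

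**Figure D1:**
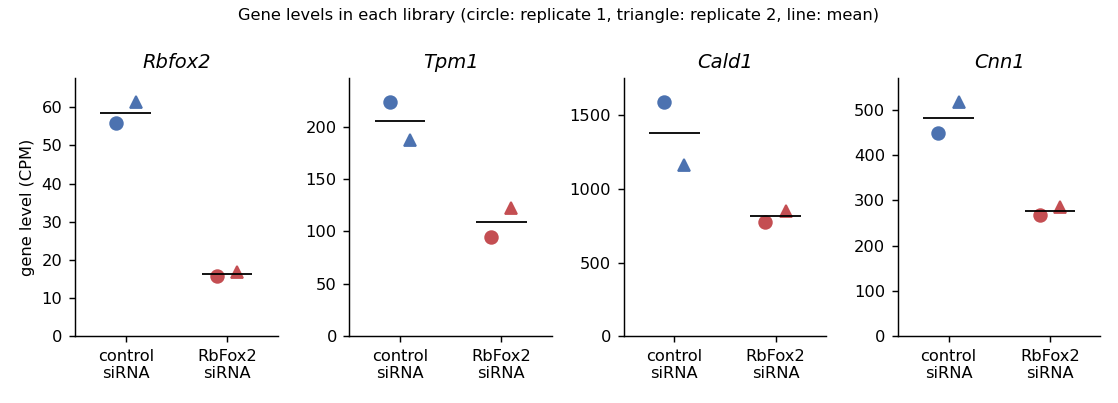
Level of *Rbfox2*, *Tpm1*, *Cald1* and *Cnn1* in each library, in CPM from 0, with a line at the mean of 2 libraries. In each panel both RbFox2 siRNA libraries lie below both control libraries, and the 2 control libraries of *Cald1* are the most widely spaced pair.

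**Figure D2:**
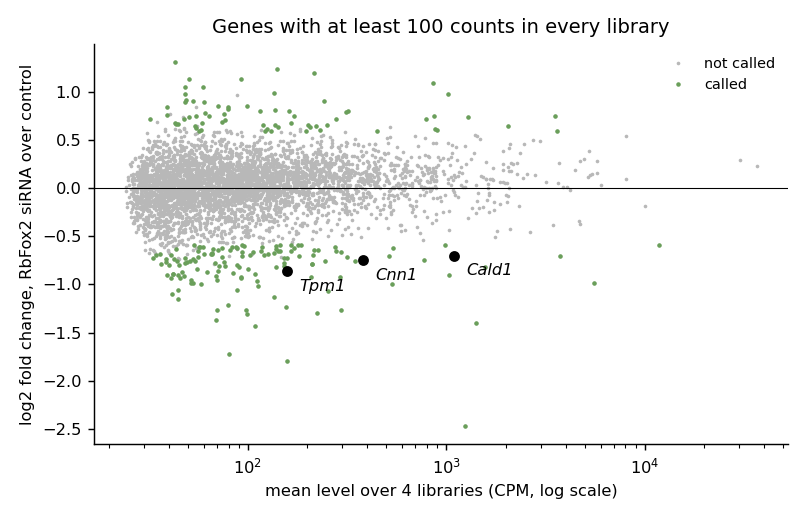
Log2 fold change of RbFox2 siRNA over control against mean CPM (log axis) for the same 4311 genes. *Tpm1*, *Cnn1* and *Cald1* lie at -0.86, -0.75 and -0.70, among the 139 genes called lower.

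Ratios within a library do not depend on how libraries are scaled. Per 100 *Cnn1* counts there were 355 and 225 *Cald1* counts in control and 290 and 296 after RbFox2 siRNA. Per 100 *Cnn1* counts there were 49.9 and 36.2 *Tpm1* counts in control, against 35.3 and 42.7. Per 100 *Tpm1* counts there were 712 and 621 *Cald1* counts in control, against 822 and 694. All 3 ratios overlapped between conditions, with folds of 1.01, 0.906 and 1.14, and with 2 libraries no exact test could reach the cutoff. The ratio of *Cald1* to *Cnn1* differed more between the control replicates than between the condition means. The 3 falls share the same 4 libraries and are not independent of one another.

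Within *Tpm1* the reads did not move together. Tpm1-203 had 120 and 82 counts in the control libraries and 222 and 300 after RbFox2 siRNA. Every RbFox2 siRNA library was above every control library, while the gene as a whole went the other way. On the scale of gene counts Tpm1-203 went from 23.9 ± 5.25 CPM (SD, n = 2) to 57.7 ± 10.3 CPM, and its log2 fold change in the transcript fit was 1.31 ± 0.216 (SE). It was called higher, as were 1.66% of the 7703 transcripts tested. Because names could be read only for transcripts that rose, the direction is part of how Tpm1-203 came to be known, and its rise is given as a description.

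The *Tpm1* reads outside Tpm1-203 numbered 853 and 681 in control and 196 and 265 after RbFox2 siRNA. They went from 182 ± 20.3 CPM (SD, n = 2) to 50.9 ± 9.15 CPM, with a fitted log2 fold change of -1.78 ± 0.161 (SE). Removing a transcript chosen by its rise deepens the fall of what is left. In the means, Tpm1-203 gained 33.8 CPM and the other reads changed by -130.7 CPM, so the gain covered only part of the loss. These other reads include other annotated transcripts and reads given to the gene but to no transcript, which were not separated here.

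Tpm1-203 took 12.3% of *Tpm1* reads (95% exact binomial interval 10.3 to 14.6) in control replicate 1 and 10.7% (8.64 to 13.2) in control replicate 2. After RbFox2 siRNA it took 53.1% (48.2 to 58.0) in replicate 1 and 53.1% (48.9 to 57.3) in replicate 2. The intervals cover counting error only. The mean share went from 11.5% ± 1.12 (SD, n = 2) to 53.1% ± 0.00898, a difference of 41.6 percentage points. The 2 RbFox2 siRNA libraries had nearly the same share although their *Tpm1* counts differed. Their intervals are far wider than this SD, so the SD of 2 libraries is not the precision of the share. Per 100 *Cnn1* counts, the *Tpm1* reads outside Tpm1-203 were 43.7 and 32.3 in control and 16.6 and 20.1 after RbFox2 siRNA. These did not overlap, but the transcript taken out was chosen by its rise, which widens the gap. The same ratio for all *Tpm1* reads overlapped between conditions.

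**Figure D3:**
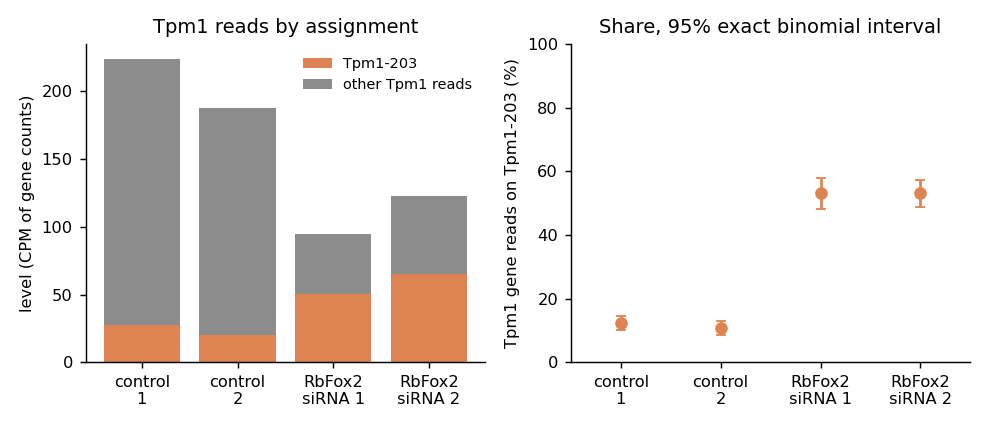
Left, *Tpm1* reads of each library in CPM of gene counts, split into Tpm1-203 and other reads; right, share of *Tpm1* reads on Tpm1-203 with its 95% exact binomial interval. The total is lower in the RbFox2 siRNA libraries, while the Tpm1-203 part is larger and its share is 53.1% against 10.7% to 12.3% in control.

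Among 405 named and tested transcripts whose gene was also named and was counted 100 times or more in each library, the median difference in share was 1.38 percentage points. The rise of Tpm1-203 was exceeded by 3 of them. In 6 of the 405 the gene was called lower, and in 5 of these the transcript was called higher, namely Gja1-201, Adnp-201, Tpm1-203, Sec31a-204 and Fnbp1l-204. Only transcripts that rose could be named, so these shares and calls come from a set chosen by its rise. They are not a neutral background for Tpm1-203. Over all 7703 transcripts tested, named or not, 1.66% were called higher. Gja1-201 was at 0% of its gene in both control libraries and at 85.0% and 86.3% after RbFox2 siRNA. The tables were deposited separately for each condition, and 341 genes and 46 transcripts were counted 10 times or more in each library of a condition but were at 0 in both libraries of the opposite one. None of the members was at 0 in any library. Whether 1 quantification run made both tables is not stated in the sources used here. A difference between runs and a difference between conditions therefore cannot be told apart. This holds for the assignment of *Tpm1* reads to transcripts, and for the gene counts of the members and of the other genes named here.

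**Figure D4:**
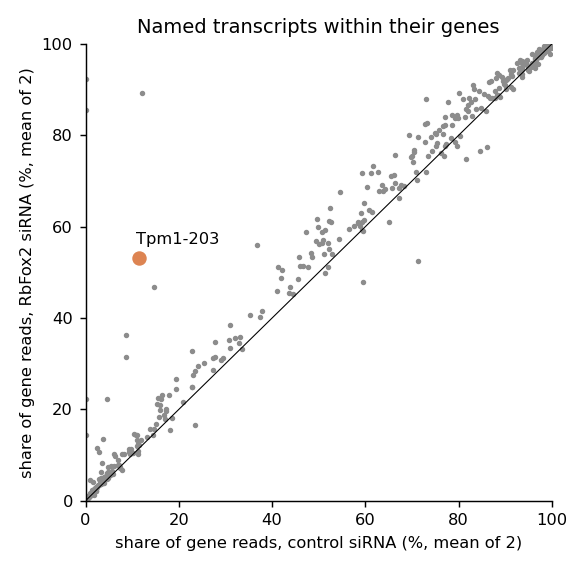
Share of the gene's reads on each of 405 named transcripts, mean of 2 RbFox2 siRNA libraries against mean of 2 control libraries, in percent, with the line of equality. Most points lie near or just above the line, Tpm1-203 lies at 11.5% and 53.1%, and only transcripts that rose could be named.

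Around these genes, 5 of the 31 listed thin filament genes could be identified, and 3 were called lower and 2 were not called. The 3 are the members. *Actb*, cytoplasmic actin, had a log2 fold change of 0.23 ± 0.166 (SE), and *Tnnt2*, the cardiac troponin T, one of 0.46 ± 0.212. Neither passed the test (adjusted p = 0.498 and 0.267, edgeR). *Tnnt2* levels were 121 and 126 counts in control against 140 and 213. Its transcript Tnnt2-202 had 51 and 42 counts in control and 57 and 90 after RbFox2 siRNA, and was not called. *Actb* has near-identical copies, and its counts are uncertain for that reason. The median log2 fold change of the 5 genes was -0.70.

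Of 30 genes of the myosin motor and its regulation, 7 could be identified, of which 5 were called lower and 2 were not called. Over all genes tested 4.37% were called lower, and over the named ones 15.6%. *Myl6*, an essential light chain, had 299 and 360 counts in control and 162 and 182 after RbFox2 siRNA, a log2 fold change of -0.99 ± 0.187 (adjusted p = 0.00548, edgeR). *Calm2*, one of the calmodulin genes whose product activates myosin light chain kinase and binds caldesmon, had 204 and 150 against 67 and 111 counts. *Myh4* and *Myh2*, fast skeletal myosin heavy chains with close paralogs, fell to 1636 and 1676 counts from 9709 and 8114 and to 25 and 32 from 327 and 295. *Mylk3*, the cardiac myosin light chain kinase, had 17 and 16 counts in control and 1 and 1 after RbFox2 siRNA, a ratio of 0.0566 with a 95% exact counting interval of 0.00658 to 0.221. *Myl12b*, a regulatory light chain, was not called, at 0.25 ± 0.17, nor was *Myh6*. The median of the 7 was -1.03. Reads of light chain, calmodulin and myosin heavy chain copies may be shared among paralogs.

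Of 40 genes of actin linkage and assembly, 11 could be identified, of which 1 was called higher and 10 were not called, with a median of 0.27. Over all 9069 genes tested, 283 were called higher. The 10 had log2 fold changes between 0.25 and 0.43, but genes not called could be named almost only where they rose. Their direction is therefore not a result. They included *Cfl1*, which severs actin filaments, *Arpc5* of the Arp2/3 complex that branches them, and *Zyx* of focal adhesions. The gene called higher was *Synpo*, an actin-associated protein, with 0 counts in both control libraries and 290 and 203 after RbFox2 siRNA, at least 77.0-fold higher against a floor of 3 counts per library. It is among the 341 genes at 0 throughout 1 condition, so here too a difference between quantification runs and one between conditions cannot be told apart. Of the 11 transcripts of this list that could be named, Fhl1-203 alone was called, at 0.78 ± 0.208 (adjusted p = 0.048, edgeR). That call was lost in 10 of the alternatives.

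**Figure D5:**
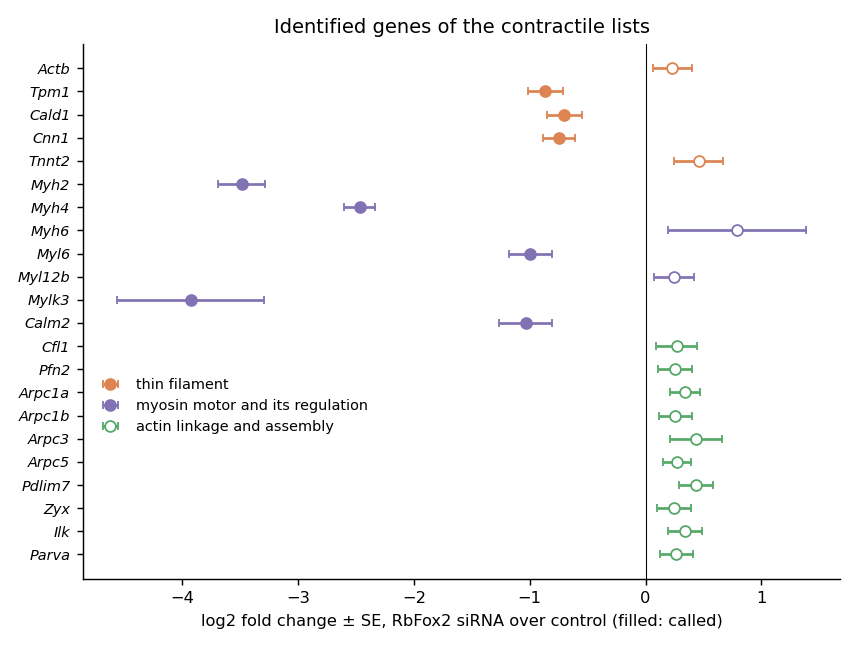
Log2 fold change with its SE for the identified genes of 3 lists (thin filament, myosin motor and its regulation, actin linkage and assembly), filled where called. The 3 members lie between -0.86 and -0.70 and the actin linkage genes lie just above 0. Genes not called could be named almost only above 0, so the lists cannot be compared by position. *Synpo*, at 0 counts in control, is not drawn.

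Defining markers of the cell type were checked as far as they could be identified. Of 14 smooth muscle markers 4 could be, *Cnn1*, *Cald1*, *Tpm1* and the integrin *Itga8*, all present in every library and all called lower. The share called lower was 4.37% over all genes tested and 15.6% over the named ones. Only *Itga8* adds to the members here, and genes that fell could be named mainly where called. *Itga8* had 179 and 162 counts in control and 75 and 113 after RbFox2 siRNA. The other 10 were not analysed here. Of 21 striated muscle markers 5 could be identified, and *Myh4* was at 2111 ± 168 CPM (SD, n = 2) in control, far from absent in a line labelled as smooth muscle, and at 367 ± 5.74 CPM after RbFox2 siRNA. Of 5 endothelial markers only *Tek* could be identified, at 7 to 17 counts per library. The striated markers *Myh2*, *Myh4* and *Mylk3* fell with the members, and the other 2, *Tnnt2* at 0.46 ± 0.212 and *Myh6* at 0.79 ± 0.594 (12 and 2 counts in control, 12 and 13 after RbFox2 siRNA), were not called. The part of these markers in the fall of the members was not tested.

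The profile of each member over the 4 libraries was compared with those of the 4310 other well-counted genes, as the Euclidean distance between log2 CPM values centred on each gene. The nearest named genes to *Tpm1* were *Uhrf1*, *Itpr1* and *Atp2b1*, at 0.0562, 0.148 and 0.154. *Itpr1* is an intracellular calcium release channel and *Atp2b1* a plasma membrane calcium pump. The nearest to *Cald1* were *Sorbs2*, *Psip1* and *Col5a1*, at 0.0522, 0.105 and 0.116. *Sorbs2* is a cytoskeletal adaptor and *Col5a1* a fibrillar collagen chain. The nearest to *Cnn1* were *Spc25*, a kinetochore component, *Cdc45*, a replication factor, and *Rasl11a*, at 0.0537, 0.0737 and 0.0892. The members themselves were farther from each other, at 0.289 between *Tpm1* and *Cald1*, 0.402 between *Tpm1* and *Cnn1* and 0.470 between *Cald1* and *Cnn1*. The nearest genes are the smallest of 4310 distances, which a given pair seldom matches. By distance from *Tpm1*, *Cald1* ranked 38 and *Cnn1* 100 of 4310. From *Cald1*, *Tpm1* ranked 92 and *Cnn1* 418, and from *Cnn1*, *Tpm1* ranked 205 and *Cald1* 307. In *Tpm1* and *Cald1* control replicate 1 was above control replicate 2, and in *Cnn1* it was below.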

How the data were processed

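Iso-Seq libraries of A7R5 cells with control siRNA or RbFox2 siRNA, 2 per condition, were analysed. The authors removed primers with lima 2.13.0, aligned full-length reads to mRatBN7.2 with pbmm2 1.17.0, used IsoQuant 3.5.0 with the Ensembl 112 annotation for quantification, and deposited raw counts of genes and of transcripts in separate tables for each condition. Groups follow the titles, although the labels' treatment text also names a siRNA against RhoBTB1. The study speaks of 2 siRNAs for each condition, and its methods list a siRNA pool against RbFox2 and a negative control product. It does not say whether the 2 libraries of a condition came from separate transfections, and the labels name no separate cultures. The p-values therefore measure the spread between these libraries only, which may be technical.

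Names came from the study's supplementary workbook, held in part and sorted by rise. Genes without a name there were not analysed here. The tables were joined by identifier. CPM used each library's gene counts, for Tpm1-203 as well. In edgeR 4.0.16 (R 4.3.3) each whole table was filtered by filterByExpr, TMM-scaled and fitted with glmQLFit, conditions were compared by glmQLFTest, and features were called at an adjusted p under 0.05 and a fold over 1.5. All members passed the filter. The SE is the log2 fold change over the root of F. For the *Tpm1* reads outside Tpm1-203, that difference replaced the *Tpm1* row. The fits were tested on simulated data. The replicates of a condition differed beyond sampling noise, with a chi-square per degree of freedom of gene counts of 4.77 for control and 9.29 for RbFox2 siRNA.

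The genes named are the members, *Rbfox2*, every identifiable gene of 3 role lists and of the marker lists, and the 3 named genes nearest to each member. The members and lists were chosen with earlier results of these data known. Promoter windows came from RefSeq, GRCr8, matched by symbol for all 3 members. Alternatives used DESeq2 1.42.0 and limma 3.58.1.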

Additional observations from a re-analysis of the deposited data

How the results depend on the processing

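The calls of *Tpm1*, *Cnn1* and *Rbfox2* were kept under all 13 alternatives, and so was that of Tpm1-203. With 1 library left out, log2 fold changes ranged from -1.02 to -0.70 for *Tpm1*, -0.88 to -0.60 for *Cnn1*, -0.87 to -0.50 for *Cald1*, -1.89 to -1.67 for *Rbfox2*, 1.11 to 1.51 for Tpm1-203 and -1.93 to -1.61 for the other *Tpm1* reads, with the lone library assumed to vary like the other condition. The call of *Cald1* was lost only without control replicate 1 (-0.50). Under the 9 alternatives that left out no library, its log2 fold change ranged from -0.76 to -0.68. The share of Tpm1-203 rose 4.60-fold, 4.31 to 4.94 with a library left out and 8.67 over the reads outside it. The fold of *Cald1* per *Cnn1* ranged from 0.826 to 1.30, the latter without control replicate 1. Fermt2-203, not called, ranged from -0.15 to 0.88 with a library left out and was reversed without control replicate 2.

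Of all genes 679 were called, 328 with at least 10 counts in every library, 337 without features at 0 in 1 condition, and 571 to 1052 with a library left out, the highest without RbFox2 siRNA replicate 2. Of transcripts 330 were called, 209 by the DESeq2 Wald test, 522 without a low-count filter and 145 to 764 with a library left out, the lowest without control replicate 1 and the highest without RbFox2 siRNA replicate 2. Deviations of same-numbered libraries had only a weak negative correlation (-0.132 for genes, -0.145 for transcripts), and nothing in the labels pairs these libraries. The replicate block gave 862 genes and 313 transcripts and the crossed block, chosen after seeing the data, 646 and 525. The cause of these shifts was not tested. With 2 libraries per condition, shares and ratios allow no exact test at the cutoff.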
